A study of Danio rerio with 10 samples.

Results

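The zebrafish glutathione peroxidase genes described here are *gpx1a*, *gpx1b*, *gpx4a*, *gpx4b*, *gpx7* and *gpx8*, 6 of the 19998 genes kept from single-cell RNA sequencing of whole embryos. They were picked by gene symbol as a family because *gpx1b* had been seen to be higher in the ectoderm of *dact1/2* mutants. The values of *gpx1b* in comparisons with *dact1/2* mutants are therefore given as a description with no test. Wildtype embryos were set against *dact1*-/-;*dact2*-/- compound mutants (*dact1/2* mutants) and against *gpc4*-/- mutants, both of which have a shortened body axis. The labels put the embryos at 3 somites. The methods put them slightly later. Dact1 and Dact2 are intracellular regulators of Wnt signaling, and Gpc4 is a cell surface proteoglycan that Wnt ligands need during convergent extension. The *dact1* and *dact2* alleles were made with CRISPR/Cas9 and carry premature stop codons, and the *gpc4* allele is an insertion line from a stock center. All embryos are labeled as the Tubingen strain and none was treated. Mutants were recognized by their truncated axis and not genotyped, and the embryo is the replicate, since every one was dissociated alone and gave 1 library. There were 10 embryos, of which 4 were wildtype, 3 carried the *dact1/2* alleles and 3 the *gpc4* allele.

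Glutathione peroxidases reduce hydrogen peroxide and lipid hydroperoxides to water and alcohols, with glutathione or another thiol as the electron donor. In mammals Gpx1 is the abundant cytosolic enzyme that removes hydrogen peroxide, and Gpx4 acts on phospholipid hydroperoxides inside membranes and so guards cells against ferroptosis, a form of death driven by iron and lipid peroxidation. Both are selenoproteins, whereas mammalian Gpx7 and Gpx8 have a cysteine in place of selenocysteine, reside in the endoplasmic reticulum and use the peroxide released there during the formation of disulfide bonds. Zebrafish carry a pair of *gpx1* paralogs and a pair of *gpx4* paralogs.

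Values are unique molecular identifiers (UMIs), which count captured mRNA molecules at the 3′ end, scaled to CPM, the UMIs of a gene per 1e+06 UMIs of the same embryo, lineage or cell class. The 16449 kept cells gave between 10168109 and 18839132 UMIs per embryo. The RNA of the targeted genes followed the labels for *dact1*, which lay between 2.60 and 2.98 CPM in *dact1/2* mutants and between 6.46 and 7.99 CPM in wildtype, and for *gpc4*, which lay between 13.5 and 17.7 CPM in *gpc4* mutants and between 50.7 and 78.8 CPM in wildtype. The *dact2* levels of *dact1/2* mutants (43.9 to 53.3 CPM) overlapped those of wildtype (42.7 to 87.9 CPM). Wildtype replicate 1 stood apart. Over 12550 genes its log2 CPM correlated with the other 3 wildtype embryos at r of 0.94 to 0.943, against 0.987 to 0.988 among those 3. A list of 17 stress genes summed to 4600 CPM in it and to 960 to 1040 CPM in the other 3. Nearly all of this was 1 gene, *hspb1*, with 4490 CPM in replicate 1 and 914 CPM on average in the other 3. Comparisons were made with wildtype replicates 2, 3 and 4 and repeated with all 4. Between libraries, 29 cell barcodes were shared, which concerns 58 of the kept cells.

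Cells fell into 17 clusters, each named after its markers as "like" a class. In sums over all cells of an embryo, fewer cells of a type and less RNA per cell cannot be told apart. UMIs were also summed for ectoderm (neural crest, neural, and neural plate/spinal cord-like cells), paraxial mesoderm (adaxial, presomitic mesoderm and somite-like cells) and lateral plate mesoderm (cephalic mesoderm, heart field, hematopoietic, pronephros and vasculogenic/myeloid-like cells). Differences are log2 fold changes of the quasi-likelihood test of edgeR, mutant over wildtype, with their standard error (SE). A gene was called where its Benjamini-Hochberg (BH) adjusted p was under 0.1 and its log2 fold change was beyond 0.58 in either direction. The filter on low counts kept all 6 genes in whole embryos, 5 in ectoderm and lateral plate mesoderm, where it removed *gpx7*, and 4 in paraxial mesoderm, where it removed *gpx7* and *gpx1b*.

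**Figure D1:**
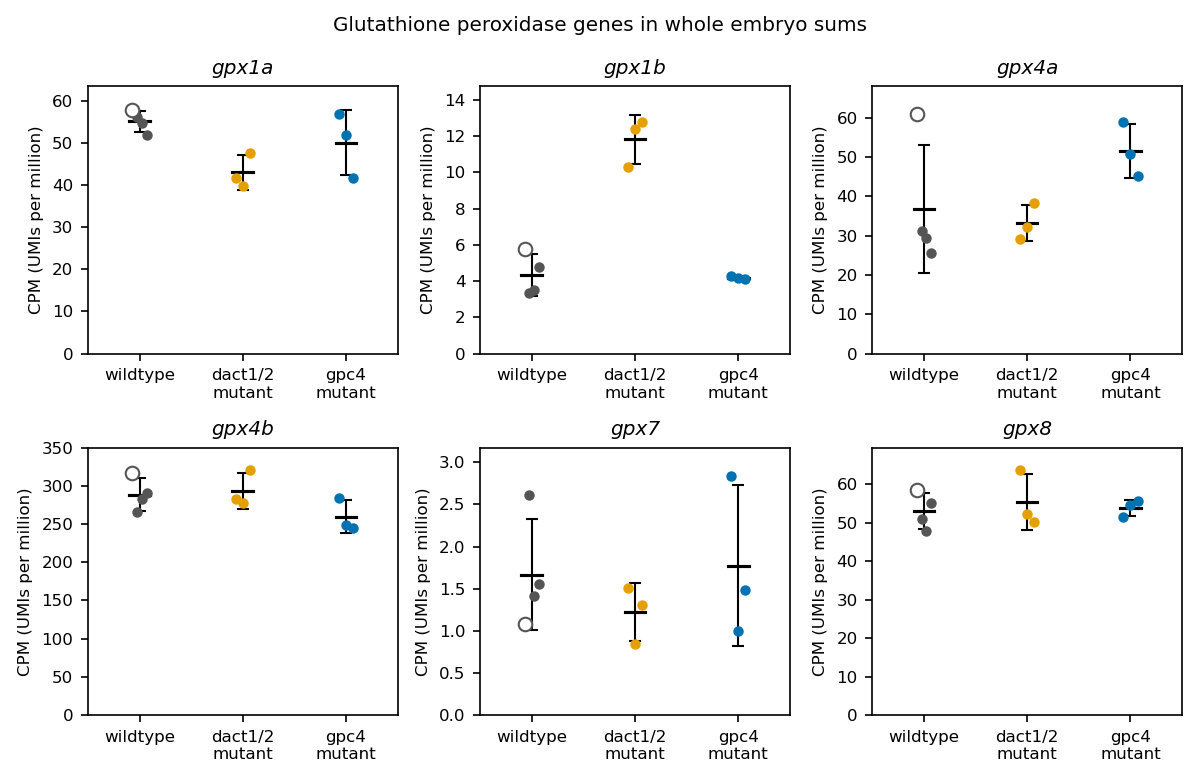
CPM of the 6 genes in sums over all cells of each embryo, by genotype. Points are embryos (4 wildtype, 3 dact1/2 mutant, 3 gpc4 mutant), the open circle is wildtype replicate 1, and lines give the mean and SD over all embryos of a group. The dact1/2 mutants lie at 10.3 to 12.8 CPM of gpx1b, above the other 7 embryos, and the gpc4 mutants lie at 45.1 to 58.8 CPM of gpx4a, above wildtype replicates 2, 3 and 4 but not above replicate 1.

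*gpx1a* and *gpx1b* are the zebrafish counterparts of the cytosolic peroxidase. Reads of such paralogs can align to both copies, and how these were counted is not given in the sources used here. *gpx1b* (ENSDARG00000006207, chromosome 6 in the assembly GRCz12tu) was higher in *dact1/2* mutants, which is the difference that chose it. In whole embryos *gpx1b* measured 10.3, 12.4 and 12.8 CPM in *dact1/2* mutant replicates 1, 2 and 3. It measured 5.75, 3.33, 3.49 and 4.75 CPM in wildtype replicates 1 to 4, and 4.30, 4.15 and 4.13 CPM in *gpc4* mutants. All 3 *dact1/2* mutants were above all 7 other embryos. The means were 11.8 ± 1.33 CPM (SD, n = 3) in *dact1/2* mutants and 3.86 ± 0.779 CPM (n = 3) in wildtype replicates 2, 3 and 4, a log2 fold change of 1.71 (SE 0.18), or 1.53 against all 4 wildtype embryos.

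In ectoderm *gpx1b* measured 13.5, 16.2 and 18.7 CPM in *dact1/2* mutants, from 62 to 111 UMIs per embryo. The wildtype ectoderm measured 5.94, 3.16, 2.84 and 3.70 CPM in replicates 1 to 4, and that of *gpc4* mutants 3.90, 5.42 and 3.60 CPM. Again the *dact1/2* mutants did not overlap any other embryo, and the log2 fold change was 2.36 (SE 0.24), or 2.12 with all 4 wildtype embryos. In paraxial mesoderm, where *gpx1b* was too sparse for the fit, the 3 *dact1/2* mutants held 37 UMIs and wildtype replicates 2, 3 and 4 held 5, with mean levels of 4.16 ± 1.81 and 0.711 ± 0.636 CPM. Wildtype replicate 1 measured 3.79 CPM there, within the range of the *dact1/2* mutants of 2.52 to 6.11 CPM. In lateral plate mesoderm the levels of *dact1/2* mutants (6.89 to 8.70 CPM) overlapped those of wildtype (3.87 to 7.09 CPM), with a log2 fold change of 0.69 (SE 0.32).

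By cell class, the mean of *gpx1b* was higher in *dact1/2* mutants than in wildtype replicates 2, 3 and 4 in 16 of 17 classes, and every *dact1/2* mutant lay above each of these wildtype embryos in 8. The 8 were the neural, neural plate/spinal cord, neural crest, epidermis, periderm, notochord, tail bud and presomitic mesoderm-like cells. With all 4 wildtype embryos, 5 were left, since replicate 1 overlapped the mutants in epidermis, periderm and presomitic mesoderm-like cells. Among all genes with at least 50 UMIs, the share with all *dact1/2* mutants above wildtype replicates 2, 3 and 4 was 5.99% in the median class (4.7% to 8.93%). Of the 8 classes, *gpx1b* itself reached that many UMIs only in neural-like and epidermis-like cells, so it would not enter this share in the others. It was also chosen for its difference in ectoderm, so the share is a background and not a test. In neural-like cells, the largest cluster, *gpx1b* averaged 15.2 ± 2.83 CPM in *dact1/2* mutants and 3.66 ± 1.04 CPM in wildtype replicates 2, 3 and 4, a ratio of 4.16. In neural plate/spinal cord-like cells the means were 20.0 ± 2.82 and 3.95 ± 3.43 CPM, a ratio of 5.06 on only 32 and 5 UMIs. In neural crest-like cells, from which crest derivatives such as pigment cells and facial cartilage arise, *dact1/2* mutants held 35 UMIs (18.8 ± 5.27 CPM) and wildtype replicates 2, 3 and 4 held 0. Against a chosen floor of 3 UMIs over that group the ratio is 8.55, which depends on the floor. Wildtype replicate 1 had 11.8 CPM in the same class, and the mean of all 4 wildtype embryos was 2.95 CPM. In tail bud-like cells, the progenitors of the trunk and tail, the means were 10.1 ± 1.19 and 1.89 ± 1.87 CPM.

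Not all classes differed in this way. In hematopoietic-like cells *gpx1b* measured 13.6 ± 4.41 CPM in *dact1/2* mutants and 13.0 ± 5.04 CPM in wildtype replicates 2, 3 and 4, a ratio of 1.04. In hatching gland-like cells, which secrete the enzymes that open the chorion, the ratio was 0.539, on 6 and 10 UMIs. In endoderm-like cells the means were 19.0 ± 6.93 and 9.27 ± 3.86 CPM and the groups overlapped. In wildtype, classes with the higher means were the pronephros-like cells (13.7 ± 14.2 CPM, n = 4, from 6 UMIs), hematopoietic-like cells (11.3 ± 5.34 CPM) and epidermis-like cells (8.27 ± 5.2 CPM), while *gpx1b* was listed at 0 UMIs in adaxial-like cells. The lead of pronephros-like cells rests on wildtype replicate 1 (33.6 CPM). In replicates 2, 3 and 4 their mean was 7.05 ± 6.26 CPM, below the 13.0 CPM of hematopoietic-like cells. In the order of the 17 wildtype means, each class overlapped its neighbours. Over these means the genes most like *gpx1b* were *mark2b* (r = 0.867), *ap1ar* (0.858), *ezra* (0.789), *trim35-28* (0.774) and *anxa4* (0.768), a description over classes that share libraries. All but *trim35-28* had their highest mean in pronephros-like cells, where *gpx1b* had only 6 UMIs in wildtype.

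**Figure D2:**
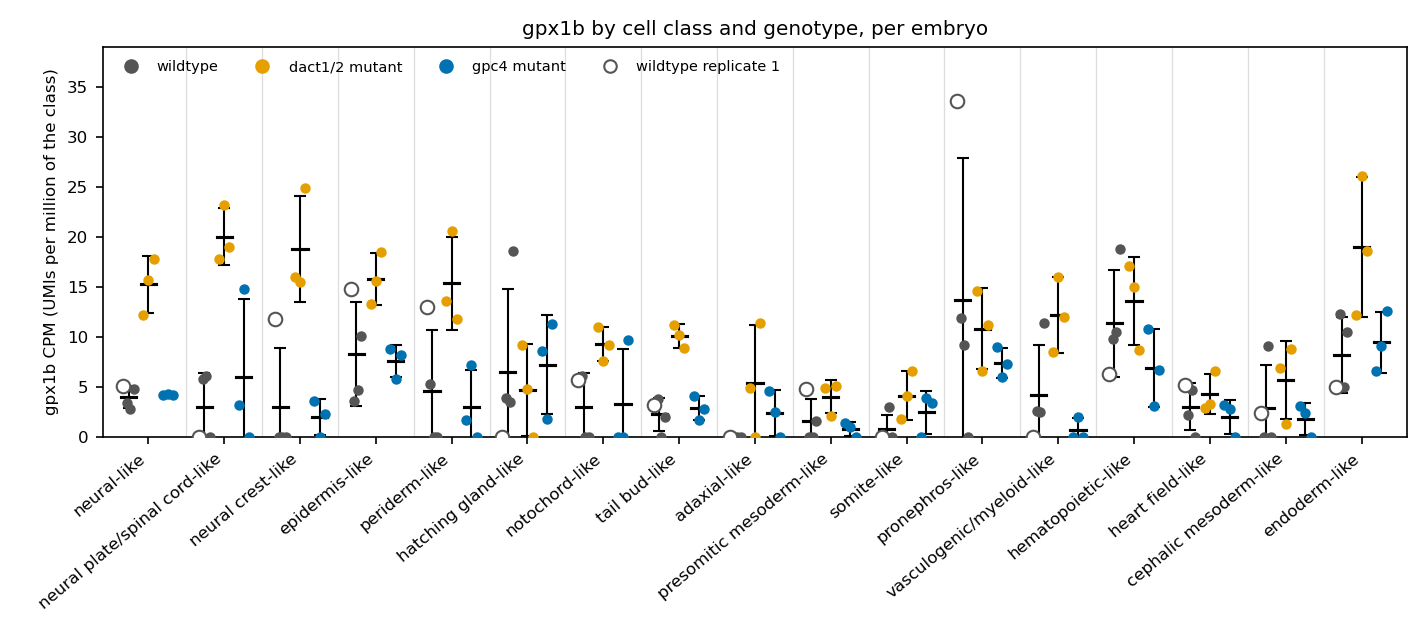
gpx1b CPM per embryo in the 17 cell classes, by genotype, with lines for the mean and SD and an open circle for wildtype replicate 1. In neural-like cells the dact1/2 mutants average 15.2 CPM and the gpc4 mutants 4.19 CPM, and in hematopoietic-like cells dact1/2 mutants average 13.6 CPM, within the wildtype range.

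The comparison of *gpc4* mutants with wildtype did not enter the choice of *gpx1b*, though it uses the same wildtype embryos. Its difference on the log2 scale was 0.18 (SE 0.20, edgeR adjusted p = 0.703) in whole embryos, 0.46 (SE 0.32, adjusted p = 0.601) in ectoderm and -0.47 (SE 0.43, adjusted p = 0.688) in lateral plate mesoderm, and it was not called. Set directly against *gpc4* mutants, *dact1/2* mutants had 1.54 more log2 units of *gpx1b* in whole embryos (SE 0.23), and the embryos of these mutants did not overlap.

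Over the 10 whole embryos, the genes whose log2 CPM was most like that of *gpx1b* among 12550 genes were *lix1l* (r = 0.972), *lhx5* (r = 0.965), *ccdc28b* (r = 0.945), *atp6v0e1* (r = 0.92) and *si:ch1073-127d16.1* (r = 0.914). These are descriptions over embryos of 3 genotypes, 3 of which stand apart for *gpx1b* itself. *lhx5*, a transcription factor gene of the forebrain, averaged 10.8 ± 0.998 CPM in *dact1/2* mutants, 6.64 ± 0.784 CPM in wildtype (n = 4) and 7.34 ± 0.474 CPM in *gpc4* mutants. *lix1l* averaged 19.7 ± 0.887, 10.5 ± 1.16 and 10.5 ± 0.957 CPM in the same order. None of the 5 lies on chromosome 6, that of *gpx1b*. *ccdc28b* lies on chromosome 13, as does the mutated gene *dact2*, and *atp6v0e1* on chromosome 14, as does *gpc4*. Distances between these genes were not examined.

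*gpx1a* (ENSDARG00000018146, chromosome 11) did not follow its paralog. In whole embryos *gpx1a* measured 57.9, 56.1, 54.7 and 51.8 CPM in wildtype replicates 1 to 4 and 41.8, 39.7 and 47.7 CPM in *dact1/2* mutants. *gpc4* mutants measured 56.8, 51.8 and 41.6 CPM. The *dact1/2* mutants lay below all 4 wildtype embryos, but the log2 fold change of -0.23 (SE 0.11) was not called (edgeR adjusted p = 0.291), and *gpc4* mutants overlapped wildtype (-0.06, SE 0.11, adjusted p = 0.827). In paraxial mesoderm both mutants lay below all wildtype embryos, with log2 fold changes of -0.30 (SE 0.14, adjusted p = 0.415) in *dact1/2* mutants and -0.33 (SE 0.16, adjusted p = 0.445) in *gpc4* mutants, and neither was called. Of the wildtype classes, endoderm-like (93.7 ± 10.8 CPM, n = 4) and tail bud-like cells (88.5 ± 15.3 CPM) had the higher *gpx1a* means, and hatching gland-like cells the lowest (33.4 ± 10.3 CPM). Neighbours in this order overlapped throughout. Over the 17 classes the levels of *gpx1a* and *gpx1b* were nearly unrelated (r = 0.0428, a description over classes of the same libraries).

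*gpx4a* and *gpx4b* encode the counterparts of the phospholipid hydroperoxide peroxidase. *gpx4a* (ENSDARG00000068478, chromosome 22) was the single gene of the family called in *gpc4* mutants, and this call depended on wildtype replicate 1. In whole embryos *gpx4a* measured 58.8, 50.8 and 45.1 CPM in *gpc4* mutant replicates 1, 2 and 3. It measured 61.0, 31.2, 29.3 and 25.5 CPM in wildtype replicates 1 to 4, and 29.1, 32.3 and 38.2 CPM in *dact1/2* mutants. All *gpc4* mutants were above wildtype replicates 2, 3 and 4 and above all *dact1/2* mutants, whereas wildtype replicate 1 was the highest of the 10 embryos. The mean rose from 28.7 ± 2.92 CPM in wildtype replicates 2, 3 and 4 to 51.6 ± 6.87 CPM in *gpc4* mutants (n = 3 each), or by 0.91 log2 units (SE 0.12, edgeR adjusted p = 0.0158).

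Among 14137 genes tested in whole embryos, 2.41% were called in *gpc4* mutants, against this 1 of 6 family genes. In ectoderm *gpx4a* rose by 0.76 log2 units (SE 0.13, adjusted p = 0.0204), 1 of 5 family genes tested, where 1.78% of all genes were called. In paraxial mesoderm *gpx4a* rose by 0.80 (SE 0.17, adjusted p = 0.0521), 1 of 4 genes tested against 1.93% of all genes. In lateral plate mesoderm it rose by 1.07 (SE 0.15, adjusted p = 0.00357), 1 of 5 against 2.03%. In each lineage the 3 *gpc4* mutants lay above wildtype replicates 2, 3 and 4. The levels in lateral plate mesoderm were 62.2, 61.5 and 54.7 CPM in *gpc4* mutants and 75.0, 30.6, 32.1 and 23.7 CPM in wildtype replicates 1 to 4.

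With all 4 wildtype embryos *gpx4a* was not called in any of these sums. Its log2 fold change was then 0.53 in whole embryos (adjusted p = 0.685), 0.59 in lateral plate mesoderm (0.778), 0.48 in ectoderm (0.706) and 0.52 in paraxial mesoderm (0.567). *hspb1*, the small heat shock protein gene that made up most of the stress list, measured 4490 CPM in wildtype replicate 1, 914 CPM on average in wildtype replicates 2, 3 and 4, 1610 CPM in *gpc4* mutants and 1480 CPM in *dact1/2* mutants. The part of this *hspb1* difference in the level of *gpx4a* was not tested. Markers of the yolk syncytial layer, a cell layer under the embryo, also summed to 4670 CPM in wildtype replicate 1 (11 of 13 markers found, none at 0), 2230 to 2810 CPM in the other wildtype embryos, 2610 to 4040 CPM in *gpc4* mutants and 2370 to 3480 CPM in *dact1/2* mutants, and their part was not tested either. In ectoderm the call was also lost without wildtype replicate 4 (0.69, adjusted p = 0.105). In paraxial mesoderm it was lost without wildtype replicate 2 (0.79, adjusted p = 0.171), 3 (0.86, 0.109) or 4 (0.72, 0.183) and without *gpc4* mutant replicate 1 (0.64, 0.194).

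The difference in *gpx4a* was spread over cell classes. Its mean in *gpc4* mutants was higher than in wildtype replicates 2, 3 and 4 in all 17 classes, with ratios from 1.04 to 2.65, and in 12 classes every *gpc4* mutant lay above each of these wildtype embryos. With all 4 wildtype embryos this held in 1 class, the neural crest-like cells, where the lowest *gpc4* mutant and wildtype replicate 1 both measured 37.1 CPM after rounding. Among all genes with at least 50 UMIs, the share with all *gpc4* mutants above wildtype replicates 2, 3 and 4 was 6.26% in the median class (5.04% to 11.7%). The classes share embryos and their libraries, so they are not independent. The highest ratio was in vasculogenic/myeloid-like cells (67.4 ± 15.8 against 25.4 ± 2.34 CPM), followed by hatching gland-like (2.52), cephalic mesoderm-like (2.32) and notochord-like cells (2.30), and the lowest in pronephros-like cells (44.5 ± 20.0 against 42.8 ± 16.1 CPM).

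**Figure D3:**
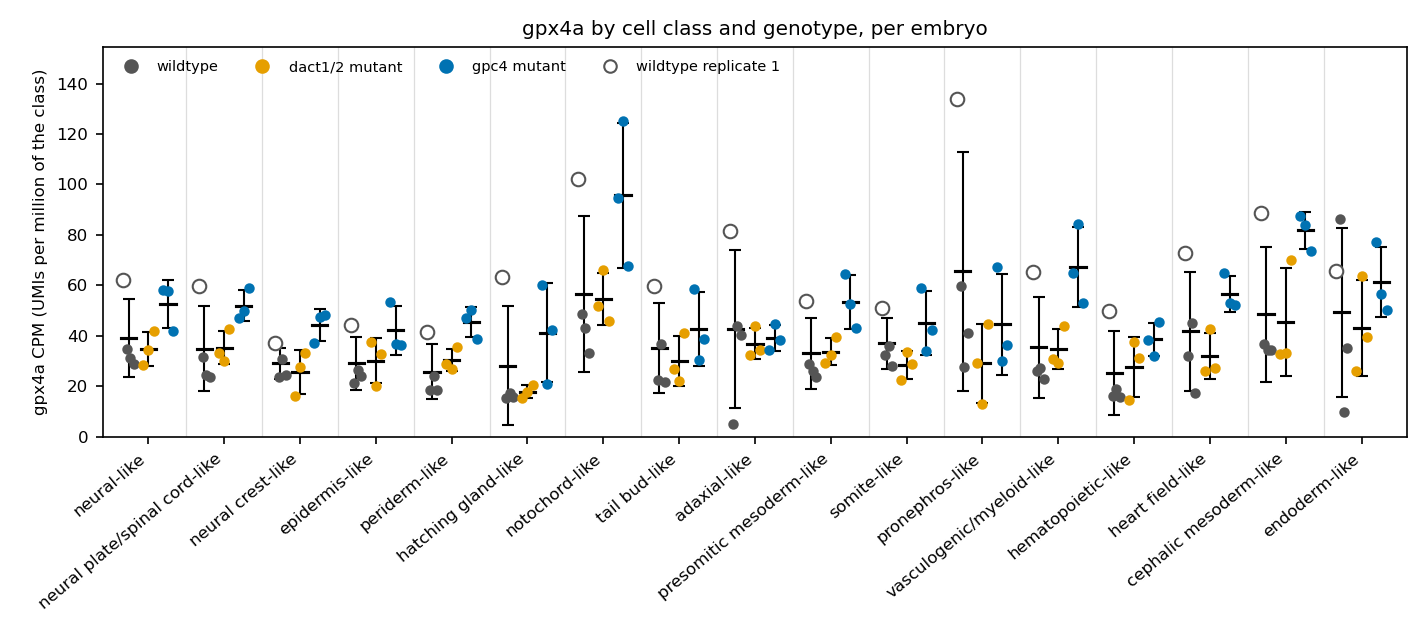
gpx4a CPM per embryo in the 17 cell classes, by genotype, with lines for the mean and SD and an open circle for wildtype replicate 1. The gpc4 mutants lie above wildtype replicates 2, 3 and 4 in 12 classes, while replicate 1 lies within or above their range in all of these but neural crest-like cells, as in cephalic mesoderm-like cells (88.6 CPM against a gpc4 mutant mean of 81.8 CPM).

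In *dact1/2* mutants *gpx4a* was not called. Its difference on the log2 scale was 0.31 (SE 0.13, edgeR adjusted p = 0.262) in whole embryos, and between 0.21 and 0.27 in the 3 lineages (adjusted p of 0.550 to 0.609). Against all 4 wildtype embryos the sign turned, to -0.06 in whole embryos (adjusted p = 0.980) and to between -0.20 and -0.03 in the lineages. In the direct comparison of the mutants it was lower in *dact1/2* mutants, at -0.59 log2 units (SE 0.30, adjusted p = 0.625), and 0 of the 5 genes tested there were called, against 0.393% of all genes (58 genes). DESeq2 called 0 of them as well, and 0 had an unadjusted p of edgeR under 0.05, against 1293 of all 14760 genes. Same-numbered mutants deviated together, which the main fit did not use. With the replicate number as a block 14 genes were called and *gpx4a* had a log2 fold change of -0.56 (adjusted p = 0.654). The main fit took its spread from all 10 embryos, and without wildtype replicate 1 *gpx4a* was called (-0.59, adjusted p = 0.0506), as it was with the 6 mutants alone, an alternative chosen after seeing the data (-0.59, adjusted p = 0.0951).

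In wildtype the *gpx4a* mean was highest in pronephros-like cells (65.7 ± 47.7 CPM, n = 4, a class with as few as 2 cells in an embryo), then in notochord-like (56.7 ± 30.8 CPM) and endoderm-like cells (49.2 ± 33.7 CPM), and lowest in hematopoietic-like cells (25.2 ± 16.5 CPM). The lead of pronephros-like cells rests on wildtype replicate 1, the embryo with 2 such cells, at 134 CPM. In replicates 2, 3 and 4 the means were 42.8 CPM in pronephros-like, 41.6 CPM in notochord-like and 43.8 CPM in endoderm-like cells. All neighbours in the order over 4 embryos overlapped, and wildtype replicate 1 was above the other 3 in every class but endoderm-like cells. At the finer clustering, where primordial germ cell-like cells formed a cluster of their own, *gpx4a* was highest in that cluster (153 ± 208 CPM in wildtype, but from 10 UMIs in 14 cells). The genes most like *gpx4a* over the 17 wildtype class means, among 5250 genes, were *si:ch211-285f17.1* (r = 0.89), the selenoprotein gene *selenot2* (0.882), *gpc4* (0.878), the syndecan gene *sdc2* (0.808) and *si:dkey-172h23.2* (0.791). These values are descriptions over classes that share libraries and differ in depth, and they include the pronephros-like mean that leans on wildtype replicate 1. *gpx4a* lies on chromosome 22 and *gpc4* on chromosome 14.

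*gpx4b* (ENSDARG00000076836, chromosome 2) was the member with the most UMIs, 37969 over all embryos, and was not called in any comparison. In whole embryos *gpx4b* measured 317, 265, 282 and 290 CPM in wildtype replicates 1 to 4 and 282, 278 and 320 CPM in *dact1/2* mutants. *gpc4* mutants measured 284, 249 and 245 CPM. All groups overlapped, with log2 fold changes of 0.18 (SE 0.09, edgeR adjusted p = 0.352) in *dact1/2* mutants and -0.05 (SE 0.08, adjusted p = 0.823) in *gpc4* mutants. In the 6 comparisons of lineages its log2 fold changes lay between -0.10 and 0.13, each with an SE of at most 0.12. Its class means in wildtype spanned from 182 ± 72.3 CPM in hatching gland-like to 389 ± 32.2 CPM in endoderm-like cells, a ratio of 2.13, with neighbours that overlapped throughout. Its closest genes over the classes were *h3f3c* (r = 0.904), *lgr4* (0.884), *cdc42l* (0.881), *ywhaba* (0.862) and *mgst3b* (0.86). *mgst3b*, a microsomal glutathione transferase gene, was also among the 5 closest to *gpx1a* (0.806), beside *ncoa3* (0.819), *dock1* (0.799), *etv5a* (0.787) and *ptk7a* (0.785).

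**Figure D4:**
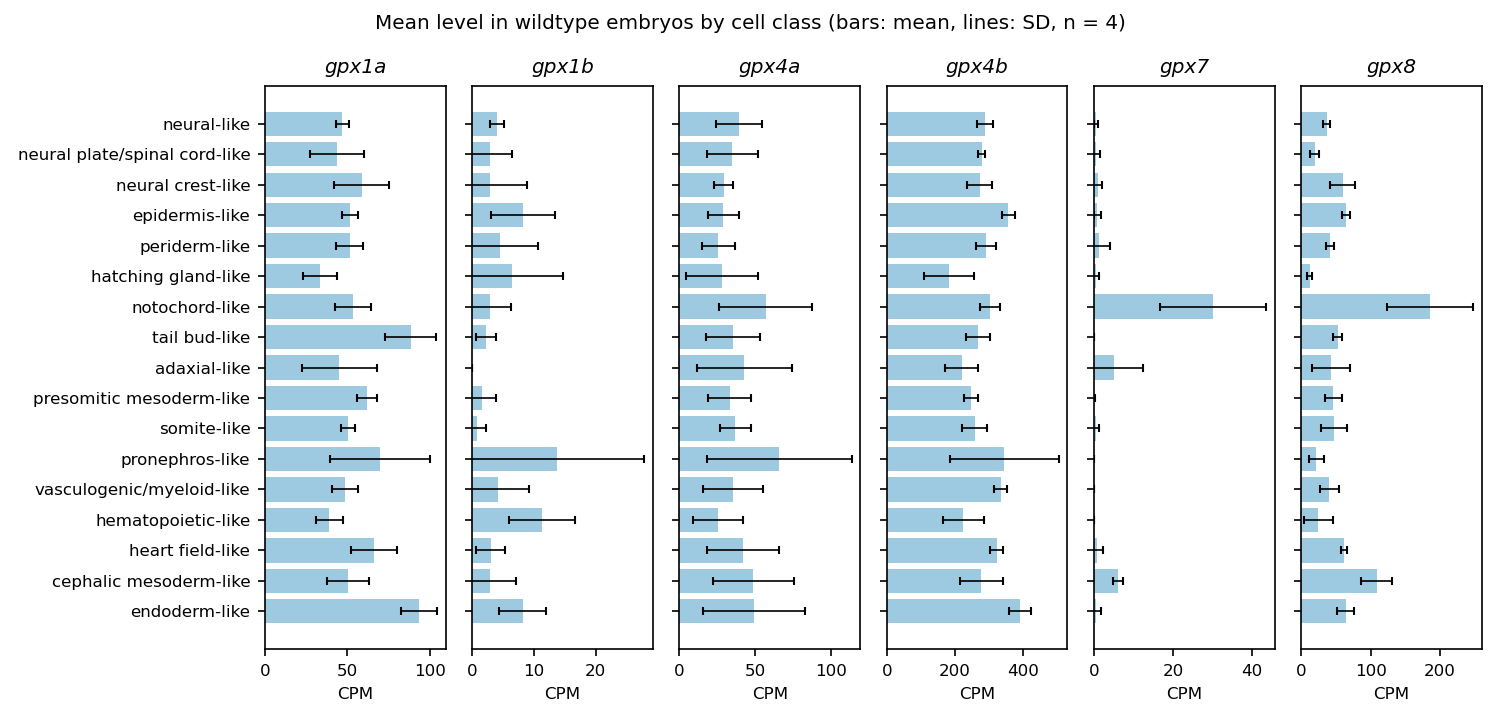
Mean CPM of each gene in the 17 cell classes of the 4 wildtype embryos, with SD as lines (cut at 0) and a separate axis for each gene, since 3′ counts are not compared between genes. gpx7 and gpx8 peak in notochord-like cells at 30.1 and 186 CPM, and gpx4b stays between 182 and 389 CPM.

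*gpx7* and *gpx8* encode the peroxidases of the endoplasmic reticulum, and both had their highest class mean in notochord-like cells, the stiff axial rod that secretes a thick collagen sheath. *gpx7* (ENSDARG00000091511, chromosome 23) was sparse, with 203 UMIs over all embryos. In notochord-like cells of wildtype *gpx7* averaged 30.1 ± 13.5 CPM (n = 4, 12.7 to 45.6 CPM), followed by cephalic mesoderm-like cells with 6.03 ± 1.24 CPM (4.73 to 7.26 CPM), a ratio of 5.0 without overlap between the embryos. In 4 classes (tail bud, hematopoietic, vasculogenic/myeloid and pronephros-like) *gpx7* was listed at 0 UMIs in all 4 wildtype embryos. In notochord-like cells of mutants *gpx7* averaged 20.8 ± 8.44 CPM in *dact1/2* mutants and 15.7 ± 2.62 CPM in *gpc4* mutants, on 30 and 17 UMIs. Both mutants lay below wildtype replicates 2, 3 and 4 (35.9 ± 8.51 CPM on 30 UMIs). Such a pattern was common in this class. Among all genes with at least 50 UMIs there, 11.4% had all *dact1/2* mutants below these wildtype embryos, and 13.8% had all *gpc4* mutants below them. With 17 and 30 UMIs in *gpc4* mutants and these wildtype embryos, *gpx7* itself did not enter the 13.8% share. Replicate 1, at 12.7 CPM, lay within the range of the *dact1/2* mutants (11.3 to 27.5 CPM) and just under that of the *gpc4* mutants (12.9 to 18.1 CPM). In cephalic mesoderm-like cells *dact1/2* mutants (2.89 ± 1.37 CPM on 5 UMIs) lay below all 4 wildtype embryos, while *gpc4* mutants (6.64 ± 3.73 CPM) overlapped them. Of genes with at least 50 UMIs in that class, 8.07% had all *dact1/2* mutants below wildtype replicates 2, 3 and 4. *gpx7* itself had fewer UMIs than that there. In whole embryos the log2 fold changes were -0.50 (SE 0.35, edgeR adjusted p = 0.486) in *dact1/2* mutants and -0.00 (SE 0.44, adjusted p = 0.999) in *gpc4* mutants.

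*gpx8* (ENSDARG00000013302, chromosome 8) had the same leading classes. In wildtype *gpx8* averaged 186 ± 62.1 CPM in notochord-like cells (135 to 264 CPM) and 109 ± 22.3 CPM in cephalic mesoderm-like cells (78.0 to 131 CPM), then 64.3 ± 5.31 CPM in epidermis-like cells (59.8 to 71.6 CPM). These 3 classes did not overlap one another over the embryos, while all later neighbours in the order did, down to hatching gland-like cells at 12.1 ± 3.99 CPM, 15.4 times below the notochord-like mean. Over the 17 classes *gpx7* and *gpx8* had the highest correlation of any pair of the family (r = 0.716), a description in which notochord-like and cephalic mesoderm-like cells carry much of the range. Genes most like *gpx8* included *ikbip* (r = 0.891), *angptl4* (0.882), *fkbp14* (0.879), a prolyl isomerase gene of the endoplasmic reticulum, *si:dkey-6n21.12* (0.867) and *atp10a* (0.857). Those most like *gpx7* were *loxl3b* (0.97), a lysyl oxidase gene that crosslinks collagen and elastin, *tmem163b* (0.969), *FQ323119.1* (0.966), *aff3* (0.965) and *zgc:113691* (0.962). All 10 had their highest class in notochord-like cells.

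**Figure D5:**
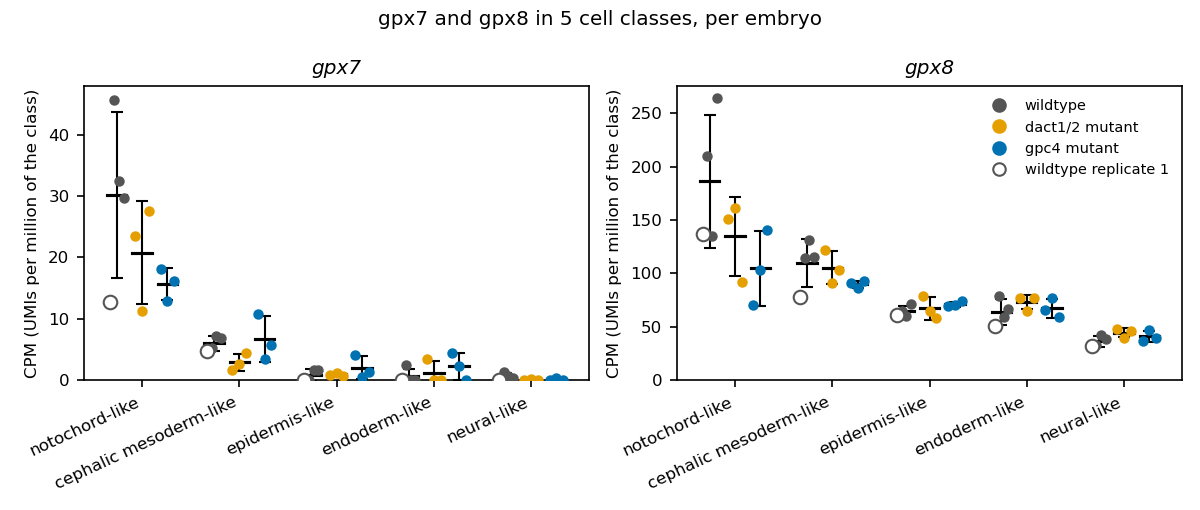
CPM of gpx7 and gpx8 per embryo in 5 cell classes, by genotype, with lines for the mean and SD and an open circle for wildtype replicate 1. Both genes are highest in notochord-like cells, where wildtype embryos reach 45.6 CPM of gpx7 and 264 CPM of gpx8 and the mutant means are lower, with overlap.

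In both mutants, too, the *gpx8* mean was highest in notochord-like and next in cephalic mesoderm-like cells. In notochord-like cells it averaged 134 ± 37.2 CPM in *dact1/2* mutants, 105 ± 35.5 CPM in *gpc4* mutants and 203 ± 64.6 CPM in wildtype replicates 2, 3 and 4, and the groups overlapped. In whole embryos *gpx8* measured 58.6, 50.9, 47.9 and 55.1 CPM in wildtype replicates 1 to 4, 63.6, 52.2 and 50.2 CPM in *dact1/2* mutants and 51.5, 54.6 and 55.5 CPM in *gpc4* mutants. The groups overlapped there too, with log2 fold changes of 0.21 (SE 0.11, edgeR adjusted p = 0.344) and 0.13 (SE 0.09, adjusted p = 0.504). In paraxial mesoderm *gpx8* measured 54.2, 49.4 and 51.2 CPM in *dact1/2* mutants, 48.2, 51.3 and 44.7 CPM in *gpc4* mutants and 66.4, 39.6, 38.4 and 39.1 CPM in wildtype replicates 1 to 4. Both mutants lay above wildtype replicates 2, 3 and 4 and below replicate 1, and neither difference was called (0.47, SE 0.14, adjusted p = 0.171, and 0.35, SE 0.13, adjusted p = 0.290). In lateral plate mesoderm *gpx8* measured 50.1, 56.6 and 52.8 CPM in *gpc4* mutants, below the 56.8 to 65.9 CPM of all 4 wildtype embryos by a small margin, and was not called (-0.10, SE 0.12, adjusted p = 0.764). In ectoderm *gpx8* lay between 30.7 and 50.8 CPM in all 10 embryos and the groups overlapped. Its neural and neural crest-like cells overlapped too. In neural plate/spinal cord-like cells both mutants lay above all 4 wildtype embryos. The means were 32.7 ± 6.07 CPM in *dact1/2* mutants, 45.2 ± 15.6 CPM in *gpc4* mutants and 19.5 ± 7.54 CPM in wildtype replicates 2, 3 and 4. Of all genes with at least 50 UMIs there, 5.55% and 6.26% had the respective mutants above these 3 embryos.

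Leaving *gpx1b* aside, 0 family genes were called in *dact1/2* mutants. This was 0 of 5 in whole embryos, where 2.21% of all genes tested were called, 0 of 4 in ectoderm (1.94%), 0 of 4 in paraxial mesoderm (1.17%) and 0 of 4 in lateral plate mesoderm (1.77%). At an unadjusted p of edgeR under 0.05 the counts were 1 (*gpx4a*), 0, 1 (*gpx8*) and 1 (*gpx1a*), and DESeq2 also called 0 in each. Over all genes that threshold was passed by 2583 of 14141 in whole embryos, 1511 of 10550 in ectoderm, 1139 of 9324 in paraxial mesoderm and 1427 of 9947 in lateral plate mesoderm.

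Genes around the peroxidases were counted in lists. Counts of called list genes in whole embryos stand beside 2.21% of all genes called in *dact1/2* mutants and 2.41% in *gpc4* mutants, and those in lineages beside 1.17% to 2.03%. These calls rest on wildtype replicates 2, 3 and 4. Of the 28 list calls against wildtype, counted once per gene and comparison, 1 was also made with all 4 wildtype embryos, *ccng1* in the ectoderm of *gpc4* mutants (0.68, adjusted p = 0.0642). The list of glutathione synthesis and recycling holds genes that make, regenerate or break down the electron donor, and also names the peroxidase genes *gpx2* and *gpx3*. It had 13 members tested in whole embryos. In *dact1/2* mutants 1 of them fell, *slc3a2b*, a subunit gene of amino acid transporters (6.99 to 3.51 CPM, log2 fold change -0.89, SE 0.17, edgeR adjusted p = 0.0529), and in *gpc4* mutants 0 were called. The list's median was -0.08 and -0.09 in the respective mutants, beside -0.02 and -0.01 over all genes tested. Of 8 other peroxide and superoxide enzymes tested, 1 was called, the peroxiredoxin gene *prdx6*, which rose in *gpc4* mutants from 9.71 to 15.6 CPM (0.75, SE 0.17, adjusted p = 0.0839, or 0.262 with all 4 wildtype embryos). The medians of this list were 0.16 in *dact1/2* mutants and 0.13 in *gpc4* mutants. Of 12 thioredoxin and glutaredoxin genes, *txnipb*, which encodes a thioredoxin-binding protein, rose in *dact1/2* mutants from 0.653 to 2.26 CPM (1.91, SE 0.39, adjusted p = 0.0613), and 0 were called in *gpc4* mutants (medians 0.18 and 0.06). In the lineages 0 genes of these 3 lists were called.

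Of the other selenoproteins, which depend on the same selenocysteine machinery as the Gpx1 and Gpx4 enzymes, 20 were tested in *dact1/2* and 21 in *gpc4* mutants and 0 were called against wildtype (medians 0.05 and -0.01). In the direct comparison of mutants 1 of 22, *selenop*, the gene of a secreted selenium carrier, was lower in *dact1/2* mutants (0.255 against 2.21 CPM, -2.96, SE 0.57, adjusted p = 0.0912). It was the single call of all 10 lists between the mutants. Of 5 genes of selenocysteine synthesis and insertion tested, 0 were called in either mutant (medians -0.12 and 0.08).

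Nrf2 is the transcription factor that induces many antioxidant genes. Of its list, 1 of 13 rose in *dact1/2* mutants, *tkta*, a transketolase gene, from 0.107 to 2.69 CPM (4.63, SE 0.66, adjusted p = 0.0185), and 1 of 12 fell in *gpc4* mutants, *sqstm1*, the gene of an autophagy receptor, from 22.0 to 8.06 CPM (-1.39, SE 0.16, adjusted p = 0.0102). *sqstm1* also fell in the 3 lineages of *gpc4* mutants, by -3.01 (SE 0.25, adjusted p = 0.000516) in paraxial mesoderm. The wildtype mean of *tkta* rests on few UMIs, so the size of its rise is uncertain. The medians of the list were -0.03 and 0.09. Of 14 genes of oxidative folding in the endoplasmic reticulum, the setting of *gpx7* and *gpx8*, 0 were called in whole embryos (medians -0.12 and 0.15), and *calr*, the gene of the chaperone calreticulin, rose in *gpc4* mutants in lateral plate mesoderm (19.4 to 44.8 CPM, 1.23, SE 0.17, adjusted p = 0.00436) and in the paraxial mesoderm (35.5 to 74.0 CPM, 1.11, SE 0.24, adjusted p = 0.0631).

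Of 15 genes of lipid peroxidation and iron, the setting of Gpx4, 0 were called in whole embryos (medians -0.30 and 0.01). In *dact1/2* mutants *acsl4a*, which encodes an acyl-CoA synthetase that supplies polyunsaturated lipids, fell in ectoderm from 23.2 to 13.5 CPM (-0.72, SE 0.19, adjusted p = 0.0900), and the transferrin receptor gene *tfr1b* fell in lateral plate mesoderm from 6.58 to 1.92 CPM (-1.67, SE 0.42, adjusted p = 0.0779). Of 11 genes of the p53 response, which in mammals can induce *GPX1*, 1 fell in *dact1/2* mutants (*sesn1*, 41.0 to 24.5 CPM, -0.64, SE 0.09, adjusted p = 0.0166) and 2 rose in *gpc4* mutants (*ccng1*, 190 to 286 CPM, 0.65, SE 0.08, adjusted p = 0.0130, and *rps27l*, 109 to 161 CPM, 0.62, SE 0.13, adjusted p = 0.0615). *rps27l* also rose in paraxial mesoderm of both mutants (0.63, SE 0.14, adjusted p = 0.0662 in *dact1/2* and 0.92, SE 0.21, adjusted p = 0.0799 in *gpc4* mutants) and in lateral plate mesoderm of *gpc4* mutants (0.68, SE 0.17, adjusted p = 0.0916). The medians were 0.03 and 0.10. Of 12 stress genes tested, 1 rose in each mutant, *hspb1* (0.81, SE 0.14, adjusted p = 0.0335, and 0.88, SE 0.16, adjusted p = 0.0427), with medians of 0.06 and 0.21.

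With all 4 wildtype embryos, the *hspb1* log2 fold change in whole embryos turned to -0.20 in *dact1/2* mutants (adjusted p = 0.960) and -0.12 in *gpc4* mutants (0.974). In wildtype replicate 1, *slc3a2b* (3.86 CPM), *sqstm1* (9.88 CPM) and *sesn1* (28.6 CPM) lay nearer to the mutant means than to those of the other wildtype embryos, while *prdx6* (8.12 CPM), *rps27l* (106 CPM) and *tkta* (0 CPM) did not. In lineages, its *acsl4a* (14.7 CPM, ectoderm), *tfr1b* (1.14 CPM) and *calr* (44.6 CPM, both lateral plate mesoderm) and *sqstm1* (6.70 CPM, paraxial mesoderm) also lay nearer to the mutant means. Its *calr* in paraxial mesoderm (37.6 CPM) did not.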

How the data were processed

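Per the labels and the study's methods, the authors aligned reads to GRCz11 with Cell Ranger 6.1.0 and deposited each embryo's count of UMIs per gene and droplet, without normalization. Of 21980 barcodes, 16449 had at least 1500 UMIs, at least 750 genes, under 5% mitochondrial UMIs and a log10 gene to UMI ratio above 80%, which is fewer cells than the methods state. Genes in at least 1 of 3000 cells were kept. No doublet caller was run.

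Residuals came from sctransform 0.4.2 (with Seurat 5.3.0 and R 4.3.3). From 3000 variable genes without the 6 members, embryo means were subtracted in place of the authors' Harmony integration, and 40 principal components (irlba 2.3.5.1) were clustered by the Louvain method at a resolution of 0.3. Clusters were named from marker lists and need not match the study's. They include no separate germ cell cluster, since germ cells lay in the hatching gland-like cluster.

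UMIs were summed per embryo, and each mutant was compared with wildtype replicates 2, 3 and 4, the wildtype embryos in the study's lineage heatmap, in edgeR 4.0.16 (quasi-likelihood test, TMM, filterByExpr, with limma 3.58.1 installed). BH adjustment ran over all genes tested, and the thresholds are those of the methods. A fit to all 10 embryos gave the difference between the mutants. The methods name DESeq2, which was an alternative (1.42.0). P-values set a difference against the spread between the embryos of a fit, which in the main fits against wildtype left out wildtype replicate 1. The fits were tested on simulated data. The simulated counts held no outlying embryo and no deviation shared by same-numbered embryos, so that test cannot speak to either feature. Deviations from the group means over 4921 genes correlated between same-numbered mutants (r = 0.465, 0.549 and 0.271 for replicates 1, 2 and 3). Between mutants and wildtype, r was -0.278 to 0.173. The main fits did not use this pairing. The replicate number entered as a block only in an alternative, which also put same-numbered wildtype embryos in the block of the mutants. In its fits against wildtype, mutant replicate 1 and wildtype replicate 4 had no partner in their blocks.

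All 6 members were described. From each pathway list at most the 3 called genes with the smallest p were named. For members with at least 200 UMIs the 5 genes with the highest Pearson r of log2(CPM + 10) over wildtype class means were named, among genes reaching 50 CPM in a class, and for *gpx1b* also over embryos with log2(CPM + 1). The members and lists were chosen with earlier results of these data known. Chromosomes come from RefSeq's GRCz12tu table, and no positions are given since its build differs.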

Additional observations from a re-analysis of the deposited data

Results flagged for a closer look

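In 3 of 25 wildtype groups of 4 embryos examined, 1 embryo lay far from the other 3, and it was replicate 1 each time. It had 61.0 CPM of *gpx4a* in whole embryos (others 25.5 to 31.2 CPM), 75.0 CPM of *gpx4a* in lateral plate mesoderm (23.7 to 32.1 CPM) and 66.4 CPM of *gpx8* in paraxial mesoderm (38.4 to 39.6 CPM). Chance alone marks about 1 in 20 such groups, and the groups share embryos.

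In *gpc4* mutants *gpx8* moved in opposite directions between lineages in every embryo, relative to the mean of wildtype replicates 2, 3 and 4. Its mean difference in log2(CPM + 1) was -0.14 in lateral plate mesoderm, 0.27 in ectoderm and 0.29 in paraxial mesoderm, so that ectoderm exceeded lateral plate mesoderm by 0.41 and paraxial mesoderm exceeded it by 0.44. In paraxial mesoderm wildtype replicate 1 (66.4 CPM) lay above every *gpc4* mutant (44.7 to 51.3 CPM), and these differences were not repeated with all 4 wildtype embryos. The difference between lineages was not tested, and *gpx8* was not called in any of the 3.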

How the results depend on the processing

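Of 604 alternative values of the 46 fold changes of family genes, 577 kept their sign, and those that turned belonged to differences that were not called in either setting. With the class held fixed at the one highest in wildtype, each gene's mean level there moved by less than 1 SD in all 42 alternatives. Leaving out 1 of the 4 wildtype embryos cannot move a mean that far, so the outcome of those alternatives was fixed in advance. In pronephros-like cells the SD was large beside the mean (13.7 ± 14.2 CPM of *gpx1b*, 65.7 ± 47.7 CPM of *gpx4a*), so larger shifts would pass there too. Counts of called genes depended on wildtype replicate 1. With all 4 wildtype embryos the counts against wildtype, for *dact1/2* and *gpc4* mutants respectively, were 6 and 17 in whole embryos (312 and 341 with 3), 9 and 14 in ectoderm (205 and 183), 2 and 7 in paraxial mesoderm (109 and 177) and 3 and 11 in lateral plate mesoderm (176 and 204), and the family genes called in *gpc4* mutants went from 1 to 0 in each sum. Leaving out 1 embryo gave 119 to 512 and 115 to 569 calls in whole embryos, 71 to 370 and 54 to 228 in ectoderm, 32 to 193 and 33 to 292 in paraxial mesoderm, 52 to 254 and 59 to 257 in lateral plate mesoderm and 10 to 434 between the mutants. The family genes called then ranged from 0 to 1 in ectoderm and paraxial mesoderm of *gpc4* mutants and between the mutants. Without the filter on low counts there were 605 and 607 calls in ectoderm, 570 and 667 in paraxial mesoderm and 489 and 604 in lateral plate mesoderm. DESeq2 gave 93 in lateral plate mesoderm of *dact1/2* mutants and 208 between the mutants. The 6 mutants alone gave 288 calls and 1 family gene. The replicate number as a block gave 174 calls in whole *gpc4* mutants, 358 in ectoderm and 330 in lateral plate mesoderm of *dact1/2* mutants, 124 in lateral plate mesoderm of *gpc4* mutants and 14 between the mutants. Under this block *gpx4a* lost its call in paraxial mesoderm (log2 fold change 0.58, adjusted p = 0.289, 0 family genes), and *gpx1b* in *dact1/2* mutants moved to 1.98 in whole embryos and 2.59 in ectoderm, and it changed no other call of a family gene. Against wildtype, mutant replicate 1 and wildtype replicate 4 stood alone in their blocks. The blocked differences from wildtype therefore rest on replicates 2 and 3, so blocking and the loss of embryos cannot be told apart. The class with the highest *gpx1b* mean was primordial germ cell-like instead of pronephros-like under both other clusterings, on 3 UMIs, and at a resolution of 0.8 the highest *gpx4a* mean was in such cells too (153 CPM on 10 UMIs, against 65.7 CPM in pronephros-like cells). With 1 CPM added in place of 10, 3 to 5 of each gene's 5 closest genes over classes remained. The cause of these changes was not tested, and leaving out an embryo changes both how many and which embryos are compared. Counts below about 50 UMIs per group limit what can be seen. This holds for *gpx7*, for *gpx1b* in single classes and for the lower levels of *tkta*, *txnipb* and *selenop*.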
